A study of Mus musculus with 8 samples.

Results

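The mitochondrial ribosomal protein genes were taken as every gene whose symbol is Mrpl or Mrps followed by a number, without pseudogenes. A probe was named by the symbol in the scanner files or by its RefSeq transcript accession. The rule found 78 genes among the 21252 gene symbols on the array, measured by 189 probes of 60 bases. All 78 were tested, and the probe that stood for each was well above background on all 8 arrays. Liver RNA of 8 male mice was hybridised to one-colour Agilent arrays, with 1 mouse per array. The 4 control mice carry no treatment in the labels, which name neither strain nor age. The 4 treated mice received oxaliplatin, a platinum drug used against colorectal cancer, by intraperitoneal injection once weekly for 6 weeks. The treatment serves as a mouse model of HSOS (hepatic sinusoidal obstruction syndrome), in which the lining of the liver's smallest vessels is damaged, and the series names its replicates biological.

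Mitochondrial ribosomes translate the few proteins that mitochondrial DNA encodes, which are core subunits of the respiratory chain and of ATP synthase. Their RNA is transcribed inside mitochondria, whereas every one of their proteins is encoded in the nucleus, made in the cytosol and imported. Part of the proteins descend from the bacterial ribosome and part were added in mitochondria. Hepatocytes, the main cells of the liver, are rich in mitochondria.

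Promoter sequences are shown for 4 of the members that fell, with and without a motif, from the RefSeq promoter table, and for the other members that carry a perfect site for nuclear respiratory factor 1, the transcription factor NRF1. Each is the 150 bases before the transcription start on GRCm38.p6, written 5′ to 3′ on the strand of the gene, with capitals marking a motif.
Mrpl3 (chr9:105053118-105053267, plus strand): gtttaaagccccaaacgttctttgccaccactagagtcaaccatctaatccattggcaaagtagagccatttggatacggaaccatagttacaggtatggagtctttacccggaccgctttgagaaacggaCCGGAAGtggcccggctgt
Mrps26 (chr2:130563607-130563756, plus strand): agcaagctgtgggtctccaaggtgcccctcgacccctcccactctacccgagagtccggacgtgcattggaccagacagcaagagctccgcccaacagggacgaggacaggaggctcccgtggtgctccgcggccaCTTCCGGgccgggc
Mrpl32 (chr13:14613038-14613187, minus strand): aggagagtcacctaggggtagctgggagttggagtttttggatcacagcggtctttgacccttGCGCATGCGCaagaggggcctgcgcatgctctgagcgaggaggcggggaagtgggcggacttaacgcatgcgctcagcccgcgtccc
Mrps14 (chr1:160195065-160195214, plus strand): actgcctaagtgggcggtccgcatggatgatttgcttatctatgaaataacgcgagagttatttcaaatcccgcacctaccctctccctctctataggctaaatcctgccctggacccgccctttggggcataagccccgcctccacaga
Mrpl9 (chr3:94443186-94443335, plus strand): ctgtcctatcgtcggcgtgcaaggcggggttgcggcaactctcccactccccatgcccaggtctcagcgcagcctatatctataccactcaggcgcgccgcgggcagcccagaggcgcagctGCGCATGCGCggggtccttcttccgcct
Mrpl39 (chr16:84735245-84735394, minus strand): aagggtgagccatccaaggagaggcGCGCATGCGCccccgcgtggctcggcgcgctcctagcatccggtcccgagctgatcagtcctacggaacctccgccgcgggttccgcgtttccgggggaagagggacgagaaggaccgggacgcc
The capitals mark CCGGAAG, the core that GABPA (nuclear respiratory factor 2) binds, in Mrpl3, and the same core read from the opposite strand in Mrps26. In Mrpl32, Mrpl9 and Mrpl39 they mark the palindromic NRF1 site. The Mrps14 stretch holds none of the motifs searched.

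Motifs were searched as exact letters on both strands of windows of 300 bases, from 250 before to 50 after the start, which the table held for 69 of the 78 genes. The GABPA core CCGGAAG lay in the windows of 26 members (37.7%), against 9.93% of all 27025 genes in the table and 12.9% of its protein-coding genes. The letters AAGATGGC, bound by the factor YY1, lay in 12 (17.4%), against 3.19% and 3.57%. The NRF1 letters lay in 3 (4.35%), against 1.07% and 1.47%. The TATA box letters TATAAA lay in 5 (7.25%), against 15.7% and 14.8%. Each motif was counted on its own, also where it overlapped another, and 37 members held at least 1 of the first 3. A match describes letters in a window and is no evidence that a factor binds there.

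All directions follow the group labels, and Cdkn1a and Phlda3, targets of the DNA damage factor p53, were lower on the arrays labelled oxaliplatin, by -3.61 ± 0.66 and -3.57 ± 0.17 (SE, adjusted p = 0.0117 and 0.000214). Whether the group labels are right was not tested, and an exchange of labels would turn every direction given here. Treated and oxaliplatin therefore stand for the label of an array throughout. Each slide and scan held 1 group, so slide and treatment cannot be told apart. All 8 hepatocyte markers were above background on every array, 3 of 8 were higher (Alb, Trf and Ttr) and 0 lower, and their summed linear level was 7962.9 to 8405.1 in controls and 9170.6 to 10013.3 with oxaliplatin. Erythroid markers were higher for 4 of 5, with a summed level of 348.4 to 1441.1 against 1555.7 to 2632.4. Those of T and NK cells gave 20.2 to 23.7 against 24.2 to 28.7, with 1 of 5 higher (Cd3e). Of these 5 only 2 were above background on every array, against 4 of 5 erythroid and 4 of 5 neutrophil markers. Neutrophil levels overlapped at 161.1 to 405.8 against 36.9 to 319.6. Of the neutrophil markers 0 of 5 passed the threshold in limma and 0 had an unadjusted p under 0.05. Summed levels of the 5 other marker lists overlapped between groups, but single markers differed by more than any member. The endothelial marker Lyve1 gave -1.49 ± 0.26 (adjusted p = 0.00993; 1 of 7 lower, 0 higher), and of 7 Kupffer cell and macrophage markers Csf1r gave 1.47 ± 0.23 (adjusted p = 0.0074) and Marco -2.26 ± 0.63 (adjusted p = 0.0406). Of 7 stellate cell markers Dcn gave -0.39 ± 0.10 (adjusted p = 0.0365), and 0 of 5 cholangiocyte and 0 of 4 B and plasma cell markers passed in limma, with 1 and 2 at an unadjusted p under 0.05. In whole liver, fewer cells of a type and less RNA per cell cannot be told apart, and the part of these markers in the members' differences was not tested.

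The expression of this gene family differed little between the groups. No member differed 2-fold, while 6.38% of the 13913 genes tested did. None of the tested cytosolic ribosomal protein genes or respiratory chain and ATP synthase subunits did either. The largest differences were 1.45-fold downward for Mrps14 and 1.47-fold upward for Mrpl49, and only the former passed the test. At an adjusted p under 0.05 in limma 9 members were lower and 1 was higher on the arrays labelled oxaliplatin, which is 12.8% of the members. Of all genes tested 18.6% passed. As lower passed 11.5% of the members and 11.6% of all genes, and as higher 1.28% and 6.99%, so the gap lay in the higher calls. The order turned with normexp background correction, where 25.6% of the members and 23.5% of all genes passed, and with median centring (88.5% and 71.3%), and the shares were 19.2% and 19.4% with a trended, robust variance. The other 68 members did not pass, which does not show that they did not differ. Their precision can be given: for 77 of the 78 genes the 95% interval of the difference lay within 2-fold of no difference, against 76.2% of all genes. The exception was Mrpl49, with an interval from -0.04 to 1.14. This depended on the scaling: with median centring 27 intervals of members lay within 2-fold, and 9 members differed 2-fold. The other alternatives gave 74 to 78 such intervals and 0 members at 2-fold. The share of intervals within 2-fold was 98.7% for the members and 100% for cytosolic ribosomal protein genes. For respiratory chain and ATP synthase subunits it was 98.8%.

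Values are log2 signal minus the 75th percentile of the array's own probes, and differences are oxaliplatin minus control on that scale. The median difference of the 78 members was -0.12, and that of all genes tested was -0.09. The members' median was -0.03 with the run name as a covariate, within the first run name, with quantile normalization and with the series matrix, -0.05 with the dimmest probe and -0.01 with the percentile over detected probes. Of the members 52 had a negative and 26 a positive difference, against 8263 and 5650 of all genes. The median size of a difference, regardless of sign, was 0.19 for the members and 0.27 for all genes. The groups did not overlap for 19 members (24.4%), 18 of them lower and 1 higher with oxaliplatin, against 27.7% of all genes. At an unadjusted p under 0.05 there were 23 members (29.5%), 22 lower and 1 higher, against 36% of all genes. For separate groups and for the unadjusted p, the split of all genes by direction is not given here. Members varied little among mice, with a median SD of 0.15 in controls and 0.12 with oxaliplatin (n = 4 each).

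**Figure D1:**
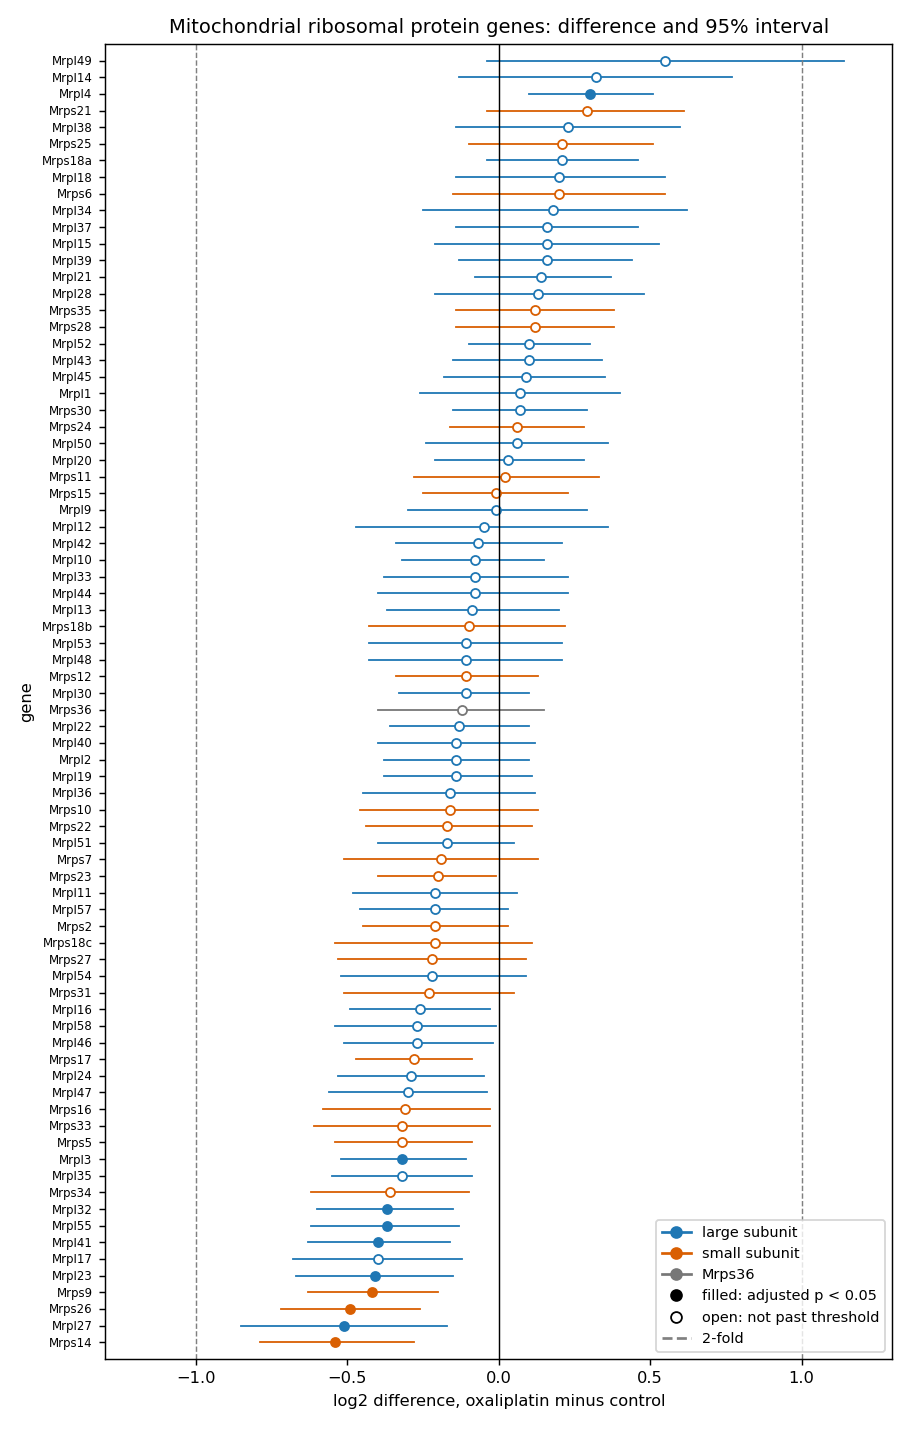
Difference between oxaliplatin and control on the log2 scale (x axis) for each of the 78 genes (y axis), as point and 95% interval from limma, n = 4 mice per group. Filled points passed an adjusted p under 0.05, colours give the subunit, and dashed lines mark 2-fold; all points lie between -0.54 and 0.55.

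The 3 small subunit genes that fell were Mrps14, Mrps26 and Mrps9. Mrps14, whose protein lies in the head of the small subunit, read 5.41, 5.41, 5.80 and 5.47 in the controls and 4.99, 4.95, 5.05 and 4.95 with oxaliplatin. Every treated mouse was below every control, and control replicate 3 stood above the other controls. The difference was -0.54 ± 0.11 (SE, n = 4 per group, adjusted p = 0.017). Mrps26, a protein found in mitochondrial but not bacterial ribosomes, read 7.03, 7.22, 7.23 and 7.36 in controls against 6.67, 6.74, 6.83 and 6.64. The groups were again separate, with a difference of -0.49 ± 0.10 (SE, adjusted p = 0.0174). Mrps9, a relative of a bacterial protein that reaches toward the tRNA in the head of the subunit, read 6.58, 6.62, 6.69 and 6.66 against 6.07, 6.35, 6.27 and 6.20. The controls lay within a narrow band and all treated mice lay below it, with a difference of -0.42 ± 0.09 (SE, adjusted p = 0.0213).

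Of the large subunit 6 genes fell and 1 rose. Mrpl27, whose bacterial relative lies near the site of peptide bond formation, read 6.46, 6.56, 7.09 and 6.73 in controls and 6.10, 6.19, 6.15 and 6.36 with oxaliplatin. Controls spread over a wider range than treated mice without touching it, and the difference was -0.51 ± 0.15 (SE, adjusted p = 0.0459). Mrpl23, at the exit of the peptide tunnel, read 6.95, 7.19, 7.10 and 7.13 against 6.46, 6.70, 6.68 and 6.90. The highest treated mouse came close to the lowest control, and the difference was -0.41 ± 0.12 (SE, adjusted p = 0.0426). Mrpl41, a mitochondria-specific protein also studied for a role in p53-dependent cell death, read 6.51, 6.69, 6.82 and 6.73 against 6.17, 6.27, 6.33 and 6.39. All treated mice were lower, by -0.40 ± 0.10 in the mean (SE, adjusted p = 0.0319).

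Mrpl32, whose precursor is cut by the m-AAA protease before it joins the ribosome, read 6.07, 6.22, 6.40 and 6.31 in controls and 5.82, 5.83, 5.88 and 5.97 with oxaliplatin. Its difference was -0.37 ± 0.10 (SE, adjusted p = 0.0361) and its groups were separate. Mrpl55 read 6.75, 6.90, 7.18 and 7.02 against 6.55, 6.58, 6.63 and 6.59, with the treated mice close together below all controls. The difference was -0.37 ± 0.11 (SE, adjusted p = 0.0454). Mrpl3, an early-assembling relative of a bacterial core protein, read 5.37, 5.28, 5.43 and 5.47 against 4.99, 5.06, 5.07 and 5.16, with a difference of -0.32 ± 0.09 (SE, adjusted p = 0.0411). The member that rose was Mrpl4, whose bacterial relative lines the peptide tunnel. It read 6.63, 6.66, 6.75 and 6.53 in controls and 6.86, 6.96, 6.94 and 7.01 with oxaliplatin, with every treated mouse above every control (difference 0.30 ± 0.09, SE, adjusted p = 0.0464).

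**Figure D2:**
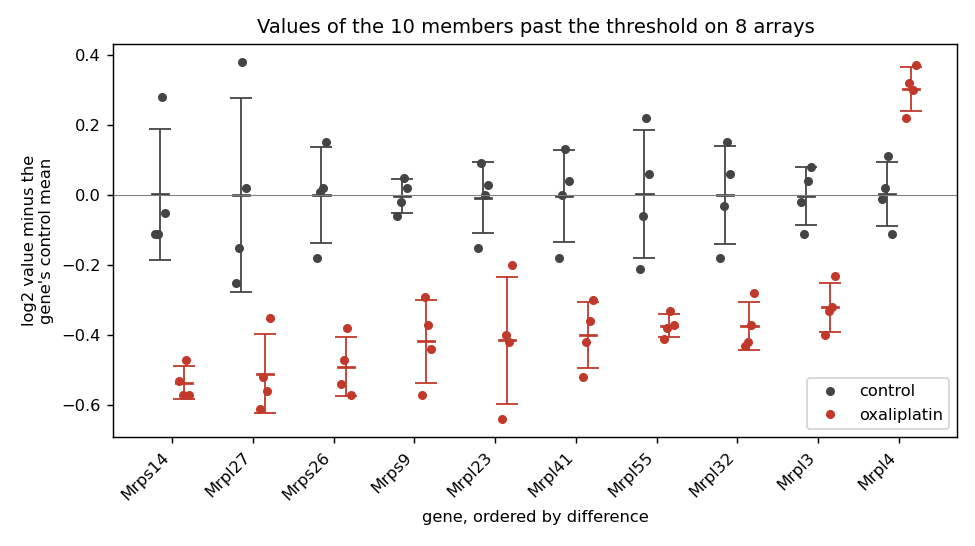
Values of the 10 members past the threshold on each of the 8 arrays, as log2 value minus the control mean of the same gene (y axis), ordered by difference (x axis). Points are mice, horizontal bars are group means and whiskers are SD (n = 4); the groups are separate for each of the 10 genes, and only Mrpl4 lies above its controls.

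These calls were close to the threshold. With each array left out in turn, Mrps14 kept its call in 8 of 8 fits, Mrps26 in 7 and Mrps9 in 5, while Mrpl4 kept it in 0, with adjusted p between 0.0586 and 0.115, and each other gene in 1 or 2. Calls over all genes became fewer in these fits too, from 18.6% with all 8 arrays. Without control replicate 3, oxaliplatin replicate 3 or oxaliplatin replicate 4 there were 2 lower members (2.56%), against 8.37%, 7.3% and 9.44% of all genes. There were 3 (3.85%) without control replicate 4 or oxaliplatin replicate 2, against 16.1% and 9.89%. There were 4 (5.13%) without control replicate 2 or oxaliplatin replicate 1, against 16.2% and 12.2%. Without control replicate 1 there were 12 (15.4%), against 16.8%. In the files the run name of oxaliplatin replicates 1 and 2 differs from that of the other 6 arrays. Within the 6 arrays of the first run name the differences of the 10 genes ran from -0.52 for Mrps14 to 0.34 for Mrpl4. As the groups of all 10 genes were separate on the 8 arrays, their directions could not turn within these 6. In that fit 0 members passed in limma (lowest adjusted p = 0.0933), against 3.7% of all genes, and 11 members had an unadjusted p under 0.05. With the run name as a covariate 0 members passed, against 6.61% of all genes, and 16 members had an unadjusted p under 0.05. Mrpl4 had a negative difference, -0.32, when arrays were centred on their median.

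**Figure D3:**
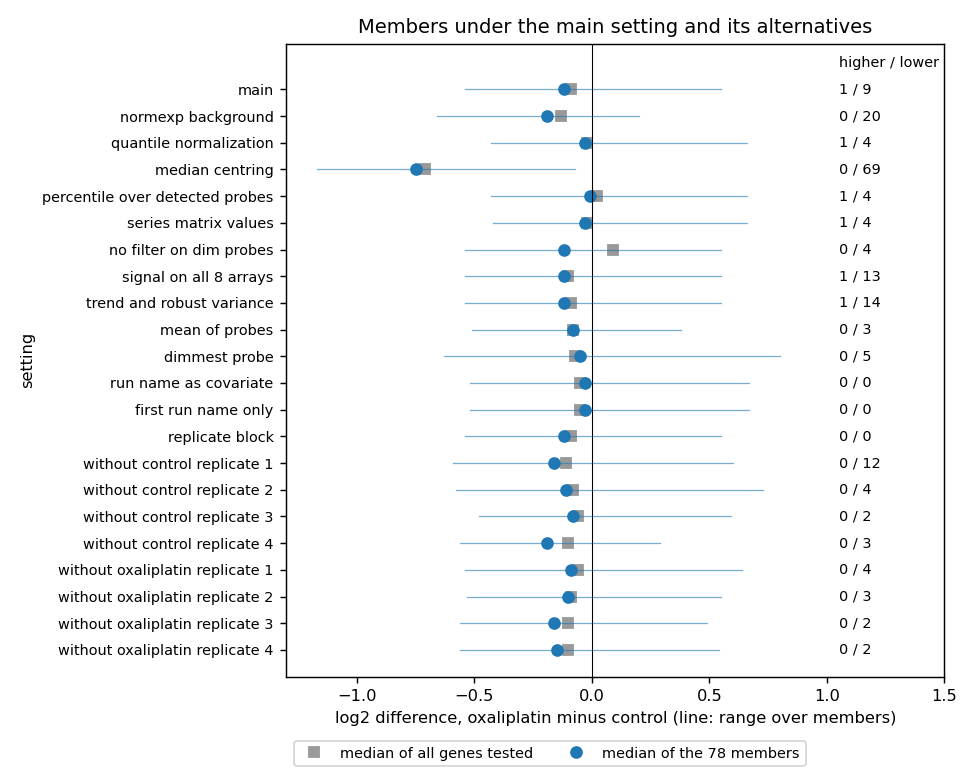
Median log2 difference of the 78 members (circles) and of all genes tested (squares), with the range over the members (lines), under the main setting and each alternative (y axis). Numbers at the right count the members that passed as higher and lower; both medians moved together under median centring, to -0.75 and -0.71, and lay furthest apart without a filter on dim probes, at -0.12 for the members and 0.09 for all genes.

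Members picked for disease links or special roles, whatever their values, mostly fell short of the threshold, as did the members at large. Mrpl3 and Mrpl41, also picked for a role, passed and are described above. Of all members 12.8% passed, against 18.6% of all genes. Mrpl12, a stalk protein reported to bind mitochondrial RNA polymerase, gave -0.05 ± 0.18 (SE, adjusted p = 0.854), and its stalk partner Mrpl10 gave -0.08 ± 0.10. Mrpl58, a peptidyl-tRNA hydrolase that rescues stalled ribosomes, gave -0.27 ± 0.11 with separate groups (adjusted p = 0.123). Mrps12, of the decoding centre, gave -0.11 ± 0.10 and Mrpl44 gave -0.08 ± 0.14. Mutations in human MRPS22, MRPS16, MRPS34 and MRPL44 cause disorders of mitochondrial translation. Mrps22 gave -0.17 ± 0.12, Mrps16 gave -0.31 ± 0.12 and Mrps34 gave -0.36 ± 0.12 (adjusted p = 0.351, 0.104 and 0.0624). Mrps5, whose level has been linked to lifespan among mouse strains, read 3.69, 3.85, 3.93 and 3.78 in controls and 3.36, 3.50, 3.59 and 3.54 with oxaliplatin. Its groups were separate, with a difference of -0.32 ± 0.10 just outside the threshold (adjusted p = 0.0543).

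Mrps18a and Mrps30 are part of the large subunit despite their names, and Mrps36 is now counted as a subunit of the oxoglutarate dehydrogenase complex. Mrps18a gave 0.21 ± 0.11, and its relatives Mrps18b and Mrps18c gave -0.10 ± 0.14 and -0.21 ± 0.14. Mrps30 gave 0.07 ± 0.10 and Mrps36 gave -0.12 ± 0.12. None of these 5 passed the test. By structure, the large subunit had 51 members (6 lower, 1 higher, 13.7% passed, median -0.09). The small subunit had 26 (3 lower, 0 higher, 11.5% passed, median -0.20). The 47 members of bacterial ancestry held 7 lower and 1 higher (17.0% passed, median -0.13). The 30 mitochondria-specific ones held 2 lower and 0 higher (6.67% passed, median -0.11). At the exit of the peptide tunnel Mrpl23 was the only 1 of 5 genes to pass (20.0%, median -0.29). In the central protuberance 0 of 5 passed (limma, 1 at an unadjusted p under 0.05). The share of all genes tested that passed was 18.6%. Differences between these groups were not tested.

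By mouse, the median of the members relative to their control means was -0.12, 0.07, 0.13 and -0.09 in controls 1 to 4. In oxaliplatin replicates 1 to 4 it was -0.25, -0.15, -0.02 and -0.07. The first treated mouse was the lowest of all 8, with 12 of 78 members above their control mean, and the second also lay below the range of the controls. These are the 2 arrays with the other run name, while replicates 3 and 4, of the same run name as the controls, lay inside that range. For all genes tested the same medians were -0.16, -0.08, -0.06 and -0.04 in the treated mice. The share of probes well above background ran from 27.2% to 40.9% over the arrays and was lowest on oxaliplatin replicate 2. The arrays' median signal separated the groups, at 5.49 to 7.05 in controls and 8.90 to 12.2 with oxaliplatin. The part of either in these results was not tested.

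Several probes per gene gave a check on the values. Of the 189 probes 181 passed the filter, and 70 members had more than 1. Of 103 further probes 75 had the same sign as the brightest probe of their gene, with a median of -0.04, and 6 passed as lower and 2 as higher when all 54636 probes were tested, of which 18.4% passed. Probes of 24 members differed in sign, and for 3 of these at least 1 probe passed. The probes that disagreed for Mrps14 are shown by their first 30 bases, as the files list them.
Mrps14, brighter probe (mm9 chr1:162130022-162130081): tatttctagatgtcagatctaattgacagg
Mrps14, dimmer probe: atgagggacagctcataaccaactgtaatt
The brighter probe gave -0.54 and the dimmer one 0.10, and the longest run of bases they share is 5, so they read different stretches. The dimmer probe read 0.27, 0.27, 0.17 and 0.65 in controls and 0.31, 0.26, 0.73 and 0.45 with oxaliplatin, with overlapping groups.

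For Mrpl50 the brighter probes gave 0.06 and 0.15 and the dimmest -0.48 (adjusted p = 0.0218 over all probes). The dimmest read 3.47, 3.64, 3.75 and 3.59 in controls against 2.99, 3.11, 3.20 and 3.23, with separate groups. For Mrps9 the 3 probes gave -0.42, -0.25 and 0.11. For Mrps26 all 3 probes were negative, from -0.63 to -0.31, and 2 passed. The probes of Mrpl55 gave -0.37 and 0.41, and those of Mrpl3 ran from -0.37 to 0.01. The Mrpl55 probe at 0.41 was also dim, reading 0.15 to 1.22, against 6.55 to 7.18 for the brighter. Mrpl27 and Mrpl41 had 1 kept probe each. Those of Mrpl4 gave 0.30 and 0.19. When all probes were tested in limma, 0 probes of Mrpl3, Mrpl4 and Mrpl55 passed. Their brightest probes had adjusted p = 0.0562, 0.0634 and 0.0551. The brightest probe of every other called member passed. The 2 member probes that passed as higher were both of Mrpl1, at 0.80 and 0.60, whose brightest probe gave 0.07. As lower passed 2 further probes of Mrps23, at -0.56 and -0.51, whose brightest gave -0.20 and did not pass. Further probes of Mrpl47 (-0.35) and Mrps31 (-0.48) also passed while the brightest did not. These probes were picked out after their values were seen.

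**Figure D4:**
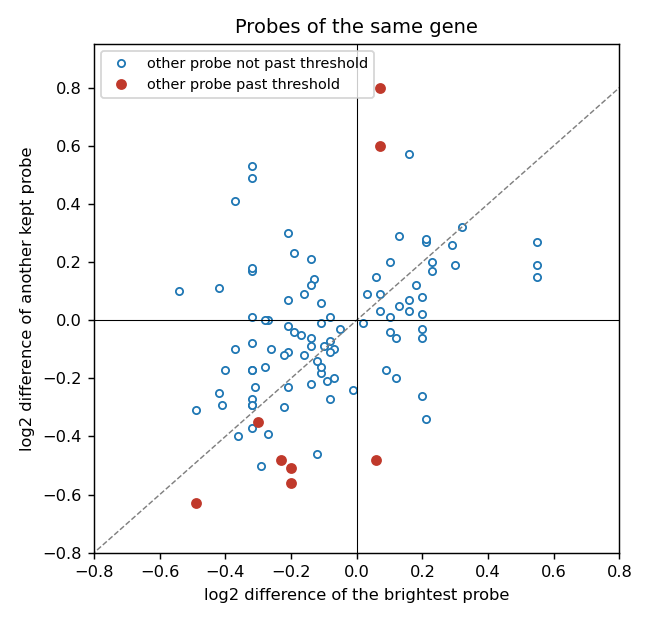
Log2 difference of each of the 103 further kept probes (y axis) against that of the brightest probe of the same gene (x axis), with the line of equality dashed. Filled points are the 8 further probes past an adjusted p under 0.05; 75 of the 103 share the sign of the brightest probe.

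Genes that build and serve the mitochondrial ribosome moved in both directions. Of 26 tested genes of assembly and rRNA modification 4 rose and 4 fell (30.8%, against 18.6% of all genes; median -0.15). Noa1, a GTPase needed for small subunit assembly, read 1.76, 1.98, 1.62 and 1.19 in controls and 2.63, 2.50, 2.83 and 2.73 with oxaliplatin. All treated mice were higher, by 1.03 ± 0.17 (SE, adjusted p = 0.00874). Mpv17l2, an inner membrane protein that associates with the large subunit, read 5.31, 5.18, 5.68 and 5.66 against 4.64, 4.77, 4.66 and 4.78. All treated mice were lower, by -0.75 ± 0.13 (SE, adjusted p = 0.0107). Tfb1m, which methylates the small rRNA, fell by 0.49 ± 0.11 (SE, adjusted p = 0.0219), and Fastkd2, which binds the large rRNA, rose by 0.63 ± 0.13 (adjusted p = 0.018). A dimmer probe of Fastkd2 gave -0.17. Outside the naming rule, Mterf4 and Ybey rose and Gtpbp10 and C1qbp fell.

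Of 16 translation factors 1 rose and 2 fell (18.8%), a share at that of all genes, 18.6%. Mtif2, the initiation factor that brings the first tRNA, rose by 0.50 ± 0.11 (SE, adjusted p = 0.0213). Mrrf, the ribosome recycling factor, fell by 0.52 ± 0.12 (adjusted p = 0.0246), with probes from -0.52 to 0.16 and a difference of -0.07 for the dimmest (adjusted p = 0.787). Oxa1l, which inserts newly made proteins into the inner membrane, fell by 0.40 ± 0.11 (adjusted p = 0.0382), with probes from -0.40 to 0.38. Of 20 aminoacyl-tRNA synthesis genes 2 passed: Pars2 rose by 0.68 ± 0.13 (adjusted p = 0.0132), with another probe at -0.85, and Ears2 fell by 0.59 ± 0.14 (adjusted p = 0.0262). Top1mt, the mitochondrial topoisomerase, fell by 0.50 ± 0.10 and was the only 1 of 18 genes of mitochondrial DNA maintenance to pass (5.56%). Yme1l1, an inner membrane protease, fell by 0.47 ± 0.13 and was the only 1 of 13 chaperones and proteases (7.69%). None of the 5 other mitoribosome proteins passed in limma, with 1 at an unadjusted p under 0.05. Within the first run name none of the genes named in this and the preceding paragraph passed, the lowest adjusted p being 0.0521 for Noa1 (1.14). With the run name as a covariate Noa1 (1.14, adjusted p = 0.0292), Pars2 (0.75, adjusted p = 0.0418) and Mpv17l2 (-0.74, adjusted p = 0.0491) passed and the others did not.

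Among 10 regulators of nuclear genes for mitochondria 2 fell and none rose (20.0%, against 18.6% of all genes). Ppargc1a, the coactivator that raises mitochondrial biogenesis, read 4.22, 3.80, 3.31 and 3.29 in controls and 2.68, 2.56, 2.71 and 2.45 with oxaliplatin. Every treated mouse was below every control, by -1.05 ± 0.21 (SE, adjusted p = 0.0151), and all 3 of its probes were negative. Myc, a growth regulator that also drives ribosome genes, fell by 1.19 ± 0.26 (adjusted p = 0.0204). Neither call held in limma once run name entered the model: Ppargc1a gave -1.07 (adjusted p = 0.0609) and Myc -1.25 (adjusted p = 0.0724). Arrays of the first run name alone gave the same differences, where Ppargc1a had adjusted p = 0.0947 and Myc 0.105. When single arrays were left out, Ppargc1a kept its call in 8 of 8 fits and Myc in 5. Of the factors whose motifs were searched, Nrf1 and Gabpa did not pass, and the value of Yy1 is not given here. Nrf1 gave -0.25 ± 0.21 and was above background on 2 of the 4 treated arrays. Gabpa gave 0.03 ± 0.12, with its 4 probes from -0.70 to 0.03. Tfam, which packages mitochondrial DNA, gave -0.07 ± 0.16, and Lrpprc, which stabilises mitochondrial mRNA, gave 0.31 ± 0.11 (adjusted p = 0.0755). The 26 members with the GABPA core had a median of -0.15 and 3 passed; the 43 without had -0.12 and 6 passed. The 3 with the NRF1 letters gave -0.37 for Mrpl32, -0.01 for Mrpl9 and 0.16 for Mrpl39. The 12 members with the YY1 letters had a median of -0.09 and 1 passed, and the 57 without had -0.14 and 8 passed.

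The products of the mitochondrial ribosome join nuclear subunits, which were measured as well. Of 81 tested nuclear subunits of the respiratory chain and ATP synthase 68 had a positive difference (median 0.19), with 2 higher and 1 lower (3.70%). Of 82 cytosolic ribosomal protein genes 41 were positive and 41 negative (median -0.00), with 6 higher and 1 lower (8.54%). Over all 13913 genes tested 18.6% passed, with 5650 positive and 8263 negative differences. The mitochondrial ribosomal protein genes had the lowest of the 3 medians, -0.12, and the differences between the families were not tested. After quantile normalization the medians were 0.14, -0.13 and -0.03 in this order. The 15 genes of mitochondrial DNA were not found by name and were not analysed here.

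**Figure D5:**
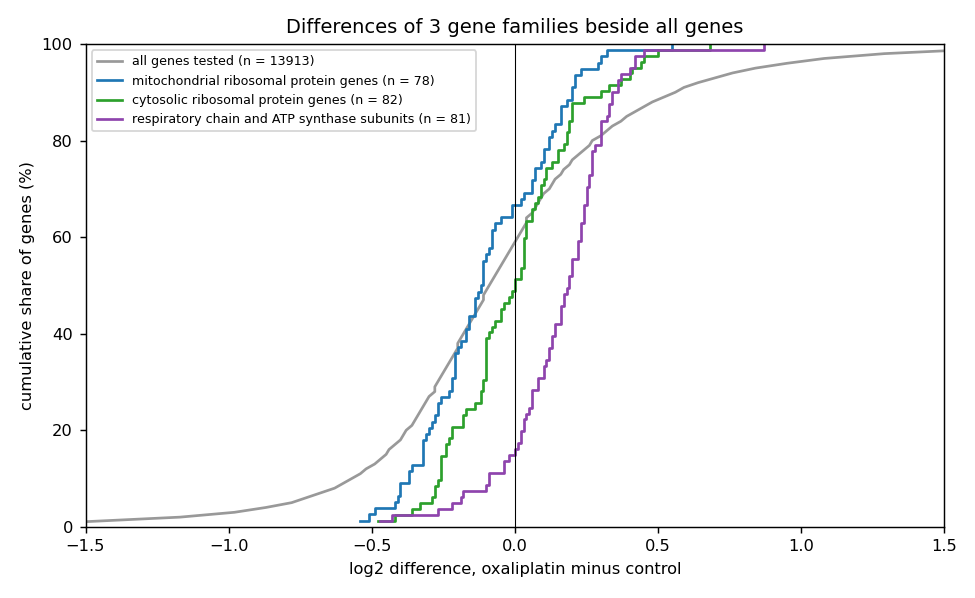
Cumulative share of genes in percent (y axis) at or below each log2 difference between oxaliplatin and control (x axis), for 78 mitochondrial and 82 cytosolic ribosomal protein genes, 81 respiratory chain and ATP synthase genes and all 13913 genes tested. The 3 families have steeper curves than all genes, and at its median that of the respiratory chain lies furthest right, at 0.19.

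Some members start close to a neighbour on the other strand. The RefSeq annotation of GRCm38.p6 gave 26 members a neighbour that starts within 1000 bases upstream on the opposite strand, and 22 of these neighbours were tested. The share of all genes with such a neighbour is not given here. In limma 1 of the 22 rose and 0 fell (4.55%, against 18.6% of all genes), with a median of 0.00. It was Zfp661, 332 bases from Mrps5, at 0.34 ± 0.08 (SE, adjusted p = 0.0265), while Mrps5 gave -0.32. Mrpl46 and Mrps11, both members and each counted as the other's neighbour, start 42 bases apart and gave -0.27 ± 0.11 and 0.02 ± 0.13. Next to Mrpl32, at -0.37, the proteasome gene Psma2 gave -0.31 ± 0.12 (adjusted p = 0.0965).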

How the data were processed

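RNA of 4 control and 4 oxaliplatin livers was read on 8 one-colour arrays. The deposited scanner files give fluorescence intensity on a linear scale, read with Feature Extraction 12.0.3.1 per the file headers; the submitters' processing notes name Agilent Feature Extraction 10.7 and limma. Quality flags for background, saturation and outliers came from the same deposited files. The deposited series matrix holds log2 values of 46867 probes, whose normalization between arrays is not given in the sources used here. The processed signal was log2 transformed, and the 75th percentile of an array's non-control probes was subtracted from its values. Probes well above background on at least 4 of 8 arrays were kept (54636), and each gene was represented by its brightest probe, leaving 13913 genes. Of 48257 probes with RefSeq accessions 47985 were named through the RefSeq table of GRCm38.p6, and 147 kept the name in the files. Probe coordinates are on mm9.

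The group difference was fitted in R 4.3.3 with limma 3.58.1 (lmFit, then eBayes, with 6 residual and 2.37 prior degrees of freedom). P-values were adjusted by Benjamini-Hochberg over all genes, and the fit was tested on simulated data. Summaries and plots used pandas 2.3.3, numpy 2.4.6 and matplotlib 3.10.9 under Python 3.11.15. The members and gene lists were chosen with earlier results of these data known. Genes are named if they are members past the threshold, members with set roles, up to 4 called genes of each companion list with the smallest adjusted p, 5 set regulators, and members whose probes disagree with 1 past the threshold. Alternatives covered the background correction (normexp, offset 50), the scaling, the series matrix, the filter, the variance model, the choice of probe, the run name, the replicate number and each array left out.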

Additional observations from a re-analysis of the deposited data

Results flagged for a closer look

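Of 86 groups of 4 arrays checked for the genes named, 3 had 1 array that stood apart from the other 3, and chance alone gives about 1 in 20. Mrps14 read 5.80 in control replicate 3, while the other controls lay between 5.41 and 5.47. Mrpl10 read 4.26 in oxaliplatin replicate 3, while the other treated mice lay between 4.05 and 4.08. Yme1l1 read 3.21 in oxaliplatin replicate 1, while the other treated mice lay between 3.44 and 3.48.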

How the results depend on the processing

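Over 21 alternatives the family stayed without a 2-fold difference in all but 1, median centring, which moved the median of all genes to -0.71 and that of the members to -0.75, with 9 members past 2-fold, 69 lower, 0 higher, 27 intervals within 2-fold and 9917 genes called. In the other alternatives 74 to 78 intervals lay within 2-fold. Higher and lower members numbered 0 and 20 with normexp (25.6% of members against 23.5% of all genes). With signal on all 8 arrays they numbered 1 and 13 (17.9% against 20.6%). They numbered 1 and 4 (6.41%) with quantile normalization, the percentile over detected probes and the series matrix, against 16.1%, 17% and 16.1%. Without a filter they numbered 0 and 4 (5.13% against 19.4%, 4114 genes called). Trend and robust variance gave 1 and 14 (19.2% against 19.4%). The mean of probes gave 0 and 3 (3.85% against 15.5%), and the dimmest probe 0 and 5 (6.41% against 16.6%). Of called genes 37.6% were higher, against 20.8% with normexp, 50% with quantile normalization, 2.32% with median centring, 60.5% with detected probes, 49.3% with the series matrix and 67.6% without a filter. The run name as a covariate gave 0 and 0 with 920 genes called, and the first run name alone 0 and 0 with 515. Leaving out 1 array gave 0 higher, 2 to 12 lower and 1015 to 2335 genes called, with medians of -0.19 to -0.08. Genes called fell to 1165 without control replicate 3, and to 1376, 1015 and 1313 without oxaliplatin replicates 2, 3 and 4 (1703 without oxaliplatin replicate 1). Same-numbered mice did not deviate together (correlations -0.322, -0.083, -0.092 and -0.227), so the numbers were not taken as pairs; a replicate block gave 0 higher and 0 lower members, 18 at an unadjusted p under 0.05, and 529 genes called. Signs turned for Fastkd2 with normexp (-0.18). With median centring they turned for Mrpl4 (-0.32), Mrps18a (-0.42), Mrps30 (-0.56), Mtif2 (-0.13), Gabpa (-0.60) and Mrpl50 (-0.57). With the mean of probes they turned for Mrpl55 (0.02), Oxa1l (0.07) and Pars2 (-0.08). With the dimmest probe they turned for Mrpl3 (0.01), Mrpl55 (0.41), Mrps9 (0.11), Mrps14 (0.10), Fastkd2 (-0.17), Oxa1l (0.18), Pars2 (-0.85), Yme1l1 (0.08), Gabpa (-0.43) and Mrpl50 (-0.48). These are the turns of called values and of values that passed after turning; in all, 12 of the 19 named genes not past the threshold had another sign in at least 1 alternative, Mrpl44 in 7, Gabpa in 6, Mrpl12 in 5, and Lrpprc in 1 (-0.31 with median centring). The causes were not tested. With 1 group on each slide, no slide term could be fitted. None of the 23 named genes past the threshold kept its call under every alternative; Mpv17l2 kept it in 19, Ppargc1a in 18, Mrps26, Noa1 and Top1mt in 17, and Mrps14 and Pars2 in 16 of 21. With 4 mice per group the number of arrays limits the precision.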
